A study of Mus musculus with 6 samples.

Results

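The metallothioneins and the zinc-handling genes around them were followed in whole kidneys of lupus-prone mice and their controls. The set held 7 genes of the 36870 on the array, namely Mt1, Mt2, Mt3, Mtf1, Slc30a1, Slc39a8 and Slc39a14, and every non-control probe that carried one of these names was used. These were 13 of 56605 probes. The set was put together because the Mt2 signal was lower in diseased kidneys, so that Mt2 was chosen by the contrast described here. Its values are therefore given as a description, with no test. The rule speaks of several Mt2 probes, whereas a single probe on the array carries that name. The remaining genes were taken as members of the same family or pathway, and their tests are not independent support for Mt2.

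Kidneys came from 3 female MRL/MpJ mice (MRL), the controls, and 3 female MRL/MpJ-Fas lpr/lpr mice (LPR), all 6 months old. LPR mice share the MRL background and are homozygous for the lpr mutation of Fas, a death receptor of lymphocytes, which is present in every cell of the animal and not in the kidney alone. They are a model of systemic lupus erythematosus with nephritis. No drug or metal treatment is named for either group. Each mouse gave 1 array, and values below are log2 signals relative to the 75th percentile of the array, so that 0 marks that percentile. A change is LPR minus MRL on this log2 scale.

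Metallothioneins are small cytosolic proteins, very rich in cysteine, that bind zinc and copper and buffer the free metal of the cell. MT1 and MT2 are made in most tissues and are abundant in the renal tubule, MT3 is best known from the brain, and MT4 from stratified epithelium. Their genes are switched on when zinc rises, through the zinc-sensing transcription factor MTF1, which binds metal response elements, and also by glucocorticoids, by interleukin-6 and by oxidants. The plasma membrane exporter ZnT1 (Slc30a1) is another MTF1 target, while ZIP8 (Slc39a8) and ZIP14 (Slc39a14) carry zinc, iron and manganese into cells.

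All 13 member probes were well above background on all 6 arrays. Both Mt1 probes and the probe of Slc39a14 were lower in LPR kidneys at an adjusted p under 0.05 in limma. These were 3 of the 12 probes other than that of Mt2, and 0 of the 12 was higher. At an unadjusted p under 0.05 in limma 5 of the 12 were lower and 0 higher, against 20.5% and 9.83% of all probes at that threshold. With adjustment, 6.17% of all 39924 probes tested were called lower and 6.53% higher. The median change of all tested probes was -0.14, which is a shift that each change below contains. Mt3, Mtf1, Slc30a1 and Slc39a8 did not pass the test.

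Since Mt1 and Mt2 were both low in the LPR arrays, the promoters of these genes are shown first, with that of Slc30a1, a further MTF1 target whose probe did not pass. Each line gives the 250 bases before the annotated start (RefSeq, GRCm38.p6, + strand, 5′ to 3′), and capitals mark matches to TGCNCNC, the core of the metal response element, on either strand.
Mt1, chr8:94178839-94179088: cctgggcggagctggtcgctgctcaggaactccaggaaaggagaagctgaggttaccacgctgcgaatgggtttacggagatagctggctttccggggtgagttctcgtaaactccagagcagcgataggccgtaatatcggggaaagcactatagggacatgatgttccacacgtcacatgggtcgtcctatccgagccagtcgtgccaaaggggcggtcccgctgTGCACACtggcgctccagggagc
Mt2, chr8:94172368-94172617: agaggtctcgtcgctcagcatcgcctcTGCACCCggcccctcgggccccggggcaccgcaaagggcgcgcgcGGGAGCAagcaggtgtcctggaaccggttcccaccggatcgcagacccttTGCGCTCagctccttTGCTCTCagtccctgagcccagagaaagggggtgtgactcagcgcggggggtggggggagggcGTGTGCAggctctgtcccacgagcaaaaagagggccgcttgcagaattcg
Slc30a1, chr1:191906531-191906780: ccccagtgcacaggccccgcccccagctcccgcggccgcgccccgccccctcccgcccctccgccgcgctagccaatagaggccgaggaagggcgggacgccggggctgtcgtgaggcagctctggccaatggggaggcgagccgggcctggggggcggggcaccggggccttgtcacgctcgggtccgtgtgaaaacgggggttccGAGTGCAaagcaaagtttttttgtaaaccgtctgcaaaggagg

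The search for TGCNCNC covered both strands of 300 bases, 250 before and 50 after each annotated start. The Mt2 window held 6 matches and the Mt1 window 3, of which a pair lay just after the annotated start, at bases 3 to 9 and 21 to 27. Bases further than 50 after an annotated start were not searched, and no other start was considered. The counts therefore hold for these windows and do not rank the whole promoters of the genes. Mt3 also had 3 matches, Slc30a1 had 2 and Mtf1 had 1. Slc39a8 has 2 annotated starts in the table, with 0 and 1 matches. Among all 32851 promoters of the table, 51.0% held at least 1 match, and 0.225% held 6 or more. Promoters of 6 of the 7 members were found, and Slc39a14 is only named here. The stricter core TGCACNC, which is contained in the first, was met in 12.6% of all promoters, and it matched 2 times each in Mt1 and Mt2 and 1 time each in Mt3, Slc30a1 and a start of Slc39a8. Of the elements bound by other inducers, the antioxidant response element TGACNNNGC matched once in Mt2, once in Slc30a1 and once at a start of Slc39a8, against 12.4% of all promoters. The full glucocorticoid response element and the STAT site TTCNNNGAA, which were met in 0.00913% and 8.3% of all promoters, had no match in any member window. At a share of 0.00913% the lack of a match in so few windows says nothing of these genes. Bases further than 250 before a start were not searched. A match is a run of letters and not a measured binding site.

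**Figure D1:**
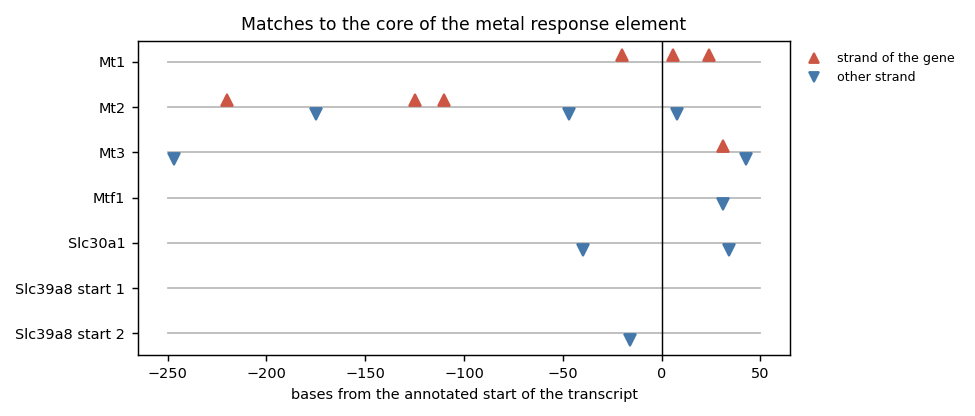
Positions of matches to TGCNCNC in the promoters of 6 member genes, in bases from the annotated start (vertical line); triangles pointing up are on the strand of the gene and those pointing down on the other strand. Mt2 has 6 matches spread over the window, whereas the 3 of Mt1 lie close to the start.

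Mt1 was measured by a pair of probes. The brighter one, A_66_P111660 (chr8:96704165-96704224 on mm9, NM_013602), read 7.65, 7.89 and 8.04 in MRL 1 to 3, and 6.54, 7.22 and 6.66 in LPR 1 to 3. Each LPR kidney thus lay below each MRL kidney. The means were 7.86 ± 0.20 (SD, n = 3) in MRL and 6.81 ± 0.36 (SD, n = 3) in LPR, so that Mt1 fell by 1.05 (standard error 0.20, 95% interval -1.54 to -0.57), which is 2.08-fold lower, with an adjusted p of 0.0194 in limma. LPR 2 kept the highest Mt1 signal of its group. Without MRL 2, MRL 3, LPR 1 or LPR 3 the call was lost, as the change was -1.04, -0.96, -0.92 and -0.98 with adjusted p of 0.0626, 0.0655, 0.0562 and 0.0672. Only MRL 1 with LPR 2 and MRL 2 with LPR 3 shared a column of the slide, and over these pairs the change was -0.83 (limma with the column in the fit, adjusted p = 0.102).

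The dimmer Mt1 probe, A_52_P423810 (chr8:96703844-96703903 on mm9, ENSMUST00000211807), lies nearer to the start of the gene. It read 1.38, 1.63 and 1.43 in MRL kidneys and -0.28, 0.01 and -0.73 in LPR kidneys, a gap of 1.37 log2 units between the nearest mice of the groups. From 1.48 ± 0.13 (SD, n = 3) to -0.33 ± 0.37 (SD, n = 3), the signal fell by 1.82 (standard error 0.20), which is 3.52-fold lower (limma, adjusted p = 0.00149). This call held under all 23 alternative settings, with changes from -1.99 to -1.62. The probes of Mt1 differed in the size of their change, and that difference was not tested. Which Mt1 transcript each of them reports was not tested either.

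Mt2 lies beside Mt1, and its only probe, A_51_P246317 (chr8:96697371-96697430 on mm9, NM_008630), read 6.75, 7.25 and 7.42 in MRL kidneys and 5.53, 6.46 and 5.90 in LPR kidneys. The LPR kidneys were all below the MRL kidneys, with 0.29 log2 units between LPR 2 and MRL 1. The mean was 7.14 ± 0.35 (SD, n = 3) in MRL and 5.96 ± 0.47 (SD, n = 3) in LPR, a change of -1.18, or 2.26-fold lower, which is stated without a test because Mt2 was selected on it. The order of the 6 mice was the same as for the brighter Mt1 probe, with LPR 1 lowest, then LPR 3, LPR 2, MRL 1 and MRL 2, and MRL 3 highest. The dimmer Mt1 probe had another order, with LPR 3 lowest and MRL 2 highest. The 3 probes that detect Mt1 and Mt2 shared at most 7 bases in a row with each other or with that of Mt3 over their whole length, and their first 30 bases follow.
Mt1, A_66_P111660: cctgtttactaaacccccgttttctaccga
Mt1, A_52_P423810: aactggctctgagaaatgtcctttgcttcc
Mt2, A_51_P246317: agaagcctagccttttttgtacaaccctga

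**Figure D2:**
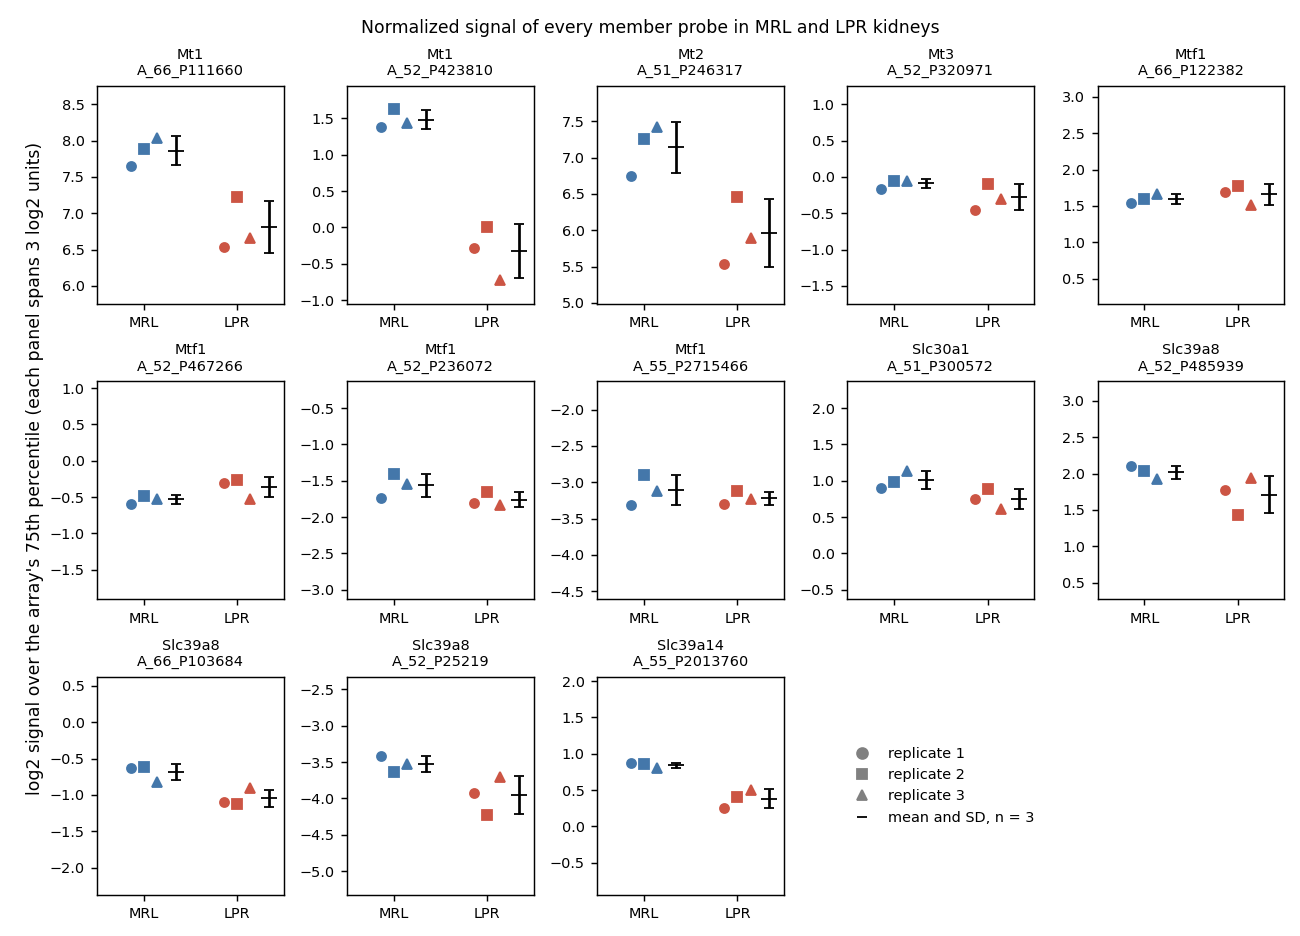
Log2 signal over the array's 75th percentile for each of the 13 member probes; each point is 1 mouse (circle, square and triangle for replicates 1 to 3), blue for MRL and red for LPR, and black bars give the mean and SD of 3 mice. Every panel spans 3 log2 units, and the groups are apart for both Mt1 probes, Mt2, Slc30a1, the 2 dimmer probes of Slc39a8, and Slc39a14.

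Markers of the proximal tubule, a part of the renal tubule, were set beside this result. By the brightest tested probe of each gene, 5.47% of all genes were called lower and 7.12% higher in limma. Of 11 markers, all above background on all 6 arrays, 4 fell, 7 did not pass and 0 rose, with a median change of -0.30. The median change of all tested probes was -0.14. From 1 to 3 markers fell when any 1 mouse was left out. Over all other settings 0 to 6 fell. Those that fell were the lactate carrier Slc5a12 (-0.84), the glucose carrier Slc5a2 (-0.57), the amino acid carrier Slc7a13 (-2.12) and Lrp2, the endocytic receptor megalin (-0.39). Slc5a12 kept its call without each of the 6 mice, Slc5a2 lost it without MRL 2, MRL 3, LPR 1 or LPR 3 (-0.58 to -0.49), Slc7a13 without MRL 3, LPR 1, LPR 2 or LPR 3 (-2.32 to -1.96), and Lrp2 without any of the 6 (-0.43 to -0.36). Of the dimmer tested probes of the 11 markers 0 were called, among them A_66_P106294 of Slc5a2 (-0.24, limma, adjusted p = 0.275). The summed level of all 11, in multiples of the 75th percentile, was 1070 to 1140 in MRL and 839 to 963 in LPR kidneys. The brightest of them, Miox, did not pass (-0.19, limma, adjusted p = 0.332). The sum was lowest in LPR 1, where Mt2 was also lowest. Both are divided by the array's 75th percentile, which was 942 in LPR 1, against 739 and 759 in LPR 2 and LPR 3. This match is thus not independent of the scaling. The 6 markers of other renal epithelium had 0 calls in limma (1 higher and 2 lower at an unadjusted p under 0.05) and summed to 315 to 337 in MRL and 281 to 285 in LPR. Among 10 leukocyte markers 7 rose, or 4 to 6 without any 1 mouse, with sums of 30.5 to 38.9 in MRL and 48.9 to 51.6 in LPR kidneys. No marker of these lists was at 0. In a whole organ, fewer cells of a type and less RNA per cell cannot be told apart, and the part of cell composition in the Mt1 and Mt2 values was not tested.

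Mt3, the brain form, was measured by A_52_P320971 (chr8:96677927-96677986 on mm9). It read -0.16, -0.05 and -0.05 in MRL kidneys and -0.45, -0.10 and -0.30 in LPR kidneys, and the groups overlapped. Its change of -0.20 (95% interval -0.49 to 0.09) did not pass (limma, adjusted p = 0.319). Mt4, which is no member of the set, was barely detected, being well above background in 2 of 3 mice of each group, with a change of 0.10 (limma, adjusted p = 0.878). The genes beside the cluster on its Mt4 side gave no call either, and on its Mt1 side no probe lay within 100000 bases. Within 100000 bases, the brightest probe of Ogfod1, an oxygenase of ribosomal protein, had a change of -0.30 (limma, adjusted p = 0.239), and that of Bbs2, a ciliary protein of the BBSome, one of -0.27 (limma, adjusted p = 0.157).

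Mtf1, the factor that drives metallothionein genes in response to zinc, was measured by 4 probes on chromosome 4, and none passed. The brightest, A_66_P122382 (chr4:124521937-124521996 on mm9), read 1.54, 1.60 and 1.67 in MRL kidneys and 1.69, 1.77 and 1.51 in LPR kidneys. LPR kidneys held both the highest and the lowest of these values. Its change was 0.06 (95% interval -0.21 to 0.32, limma, adjusted p = 0.759). The 3 other probes changed by 0.17, -0.20 and -0.11, with adjusted p of 0.330, 0.313 and 0.626 in limma, and in all of them the groups overlapped. The mRNA level of a factor that is activated by binding zinc says nothing of its activity.

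Slc30a1, the exporter, was measured by A_51_P300572 (chr1:193736760-193736819 on mm9). It read 0.90, 0.99 and 1.13 in MRL kidneys and 0.75, 0.89 and 0.61 in LPR kidneys, so that the groups were apart by 0.01 log2 units only. The means of 1.01 ± 0.12 (SD, n = 3) and 0.75 ± 0.14 (SD, n = 3) gave a change of -0.26 (95% interval -0.55 to 0.03), which did not pass (limma, adjusted p = 0.203). In 6 of the 12 probes other than that of Mt2 each LPR kidney was below each MRL kidney, and among all probes tested this was so for 26.9%.

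Of the importers in the set, Slc39a14 (ZIP14) was the single call. Its probe A_55_P2013760 (chr14:70703394-70703453 on mm9) read 0.87, 0.86 and 0.81 in MRL kidneys and 0.25, 0.40 and 0.50 in LPR kidneys. The MRL mice were within 0.06 log2 units of each other and the LPR mice were all lower. The level fell by 0.46 (standard error 0.11, 95% interval -0.71 to -0.21), from 0.84 ± 0.03 (SD, n = 3) to 0.38 ± 0.13 (SD, n = 3), with an adjusted p of 0.0364 in limma. The call was lost without any 1 of the 6 mice, at changes of -0.52 to -0.39 and adjusted p of 0.0579 to 0.120.

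Slc39a8 (ZIP8) was measured by 3 probes on chromosome 3, and each was lower on average in LPR kidneys without passing. The brightest, A_52_P485939 (chr3:135551169-135551228 on mm9), read 2.10, 2.04 and 1.92 in MRL kidneys and 1.77, 1.43 and 1.94 in LPR kidneys. LPR 3 lay within the MRL range and LPR 2 was lowest. The change was -0.31 (95% interval -0.67 to 0.05, limma, adjusted p = 0.223). The dimmer A_66_P103684 changed by -0.36 and A_52_P25219 by -0.43, with adjusted p of 0.0895 and 0.118 in limma, and in both the groups were apart.

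**Figure D3:**
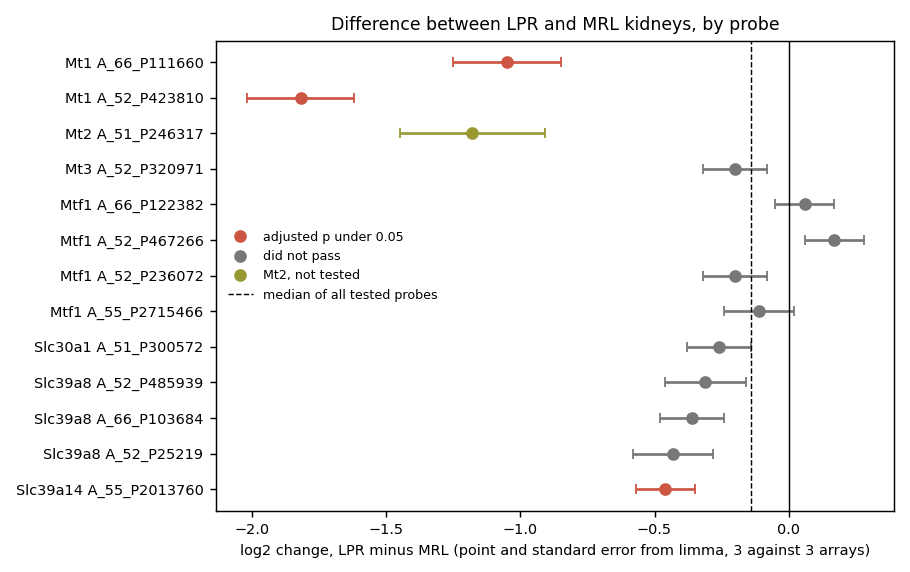
Log2 change (LPR minus MRL) of each member probe with its standard error, 3 against 3 mice; red probes passed an adjusted p of 0.05, grey ones did not, and Mt2 was not tested. The dashed line is the median of all tested probes at -0.14; the probes of Mt1 and Mt2 lie between -1.82 and -1.05, all others between -0.46 and 0.17.

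The other zinc transporters gave 1 call by their brightest probes. Counts of genes in this and the following lists use the brightest tested probe of each gene. At an unadjusted p under 0.05 in limma, 18.9% of all genes were lower and 10.5% higher by that probe. Of 9 further exporters of the Slc30 family, 6 could be tested and 0 passed in limma (1 lower at an unadjusted p under 0.05), with a median change of -0.10, against 5.47% of all genes called lower and 7.12% called higher by their brightest probe. The lowest was Slc30a2 (ZnT2), a vesicular transporter, at -0.79 (limma, adjusted p = 0.0696), and the 5 other tested genes ranged from -0.17 to 0.13. Of 12 further importers of the Slc39 family, 11 were tested, and 1 rose. Their median change was 0.12.

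The importer that rose was Slc39a4 (ZIP4), which is known for the uptake of dietary zinc in the gut. Its probe A_51_P103222 had means of -1.88 in MRL and -0.97 in LPR kidneys, a rise of 0.91 (standard error 0.13, limma, adjusted p = 0.00538), and the groups were apart. Slc39a10 (ZIP10) had a change of 0.64, which did not pass (limma, adjusted p = 0.0783). The 9 remaining tested importers, among them the widely expressed Slc39a1 (0.22) and the endoplasmic reticulum transporter Slc39a7 (0.12), had changes from -0.13 to 0.22. Among the dimmer probes of both families, 1 of Slc30a9, A_51_P465809, fell by 0.41 and 1 of Slc39a9, A_51_P188023, by 0.79 (limma, adjusted p = 0.0403 and 0.0200), while the brightest probes of these genes, at -0.17 and 0.00, did not pass.

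Beyond metallothioneins and Slc30a1, 7 genes reported as MTF1 targets were measured. Of these 1 fell and 0 rose in limma (1 higher and 2 lower at an unadjusted p under 0.05), and 0 to 2 fell under other settings. The one that fell was Gclc, the catalytic subunit of the enzyme that starts glutathione synthesis, at -0.87 (limma, adjusted p = 0.0336), a call that was lost without MRL 1, MRL 3, LPR 1, LPR 2 or LPR 3 (-0.92 to -0.67, adjusted p of 0.0565 to 0.0816). Ndrg1 came next to passing, at -0.45 (limma, adjusted p = 0.0503), and its groups were apart. The iron exporter Slc40a1 had a change of -0.30, the selenoprotein Selenow of 0.04 and Csrp1 of 0.26. The median of the 7 genes was -0.30. Copper, the other metal that metallothioneins hold, is carried by transporters and chaperones of which 13 were tested, and 0 passed in limma (1 lower at an unadjusted p under 0.05). The importer Slc31a1 changed by -0.24, the chaperone Atox1 by -0.05, the exporting pump Atp7a by -0.19 and superoxide dismutase Sod1 by -0.23, while a dimmer Sod1 probe, A_52_P3581, fell by 0.53 (limma, adjusted p = 0.0359). In the list of 5 transporters of divalent metals 1 rose, namely Slc11a1, the metal pump of the phagosome of macrophages, by 4.27 (limma, adjusted p = 9.7e-05). The iron importers Slc11a2 (-0.14) and Tfrc (-0.50) did not pass. Trpm7, a channel kinase that conducts zinc and magnesium, did not pass by its brightest probe (-0.50, limma, adjusted p = 0.198), whereas its dimmer probes A_55_P2610277 and A_55_P2809423 fell by 0.76 and 0.50 (limma, adjusted p = 0.00296 and 0.0292).

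The genes of known metallothionein inducers were tallied next. Of 7 genes induced by glucocorticoids, 0 passed in limma (1 lower at an unadjusted p under 0.05), and the median change was -0.34; Fkbp5 was at -0.50 and Tsc22d3, also called GILZ, at -0.05. The intervals were wide for some of them, since Zbtb16 had a standard error of 0.82. Of 7 targets of the oxidant-sensing factor NRF2, Gclc, which was counted above, fell by its brightest probe, and Nqo1 (-0.37), Gclm (-0.38) and Hmox1 (0.44) did not pass. Txnrd1 did not pass by its brightest probe (-0.21), and fell by 0.58 in the dimmer A_55_P2740574 (limma, adjusted p = 0.0181). Of 7 hypoxia targets 0 passed in limma (3 lower at an unadjusted p under 0.05), with a median of -0.25, and of the further probes 1 of Pdk1, A_51_P406429, fell by 0.52 (limma, adjusted p = 0.0349).

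Of 11 tested genes of the interleukin-6 and STAT3 response, 5 rose, 0 fell and 6 did not pass. The count was 2 to 6 under other settings, and 3 where only probes above background on all 6 arrays were kept. The median change of 0.89 was that of Fgb, which did not pass and was above background in 1 of 3 MRL mice, and Fga was at -0.31. The feedback inhibitor Socs3 rose by 2.19 and the iron-trapping protein Lcn2 by 2.14, with adjusted p of 0.000725 and 0.00483 in limma. The acute phase protein Saa2, which was below background in all 3 MRL mice, was at least 6.31-fold higher. It is counted among the 5, but it met the filter only through the LPR arrays, so its p-value is not given. Saa3, above background in 1 of 3 MRL mice, had a fitted rise of 5.33. Saa1 rose by 0.47, a call that was lost without MRL 1, MRL 2, MRL 3, LPR 1, LPR 2 or LPR 3 (adjusted p of 0.0546 to 0.124 in limma). Il6 itself was above background in 1 of 3 MRL and 3 of 3 LPR mice, and its change of 1.79 did not pass (limma, adjusted p = 0.161). The zinc-binding calprotectin subunits S100a8 and S100a9, which are products of neutrophils and macrophages, rose by 2.48 and 2.28 (limma, adjusted p = 0.00719 and 0.0105). These rises went with the higher leukocyte markers given above, whose part in them was not tested.

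**Figure D4:**
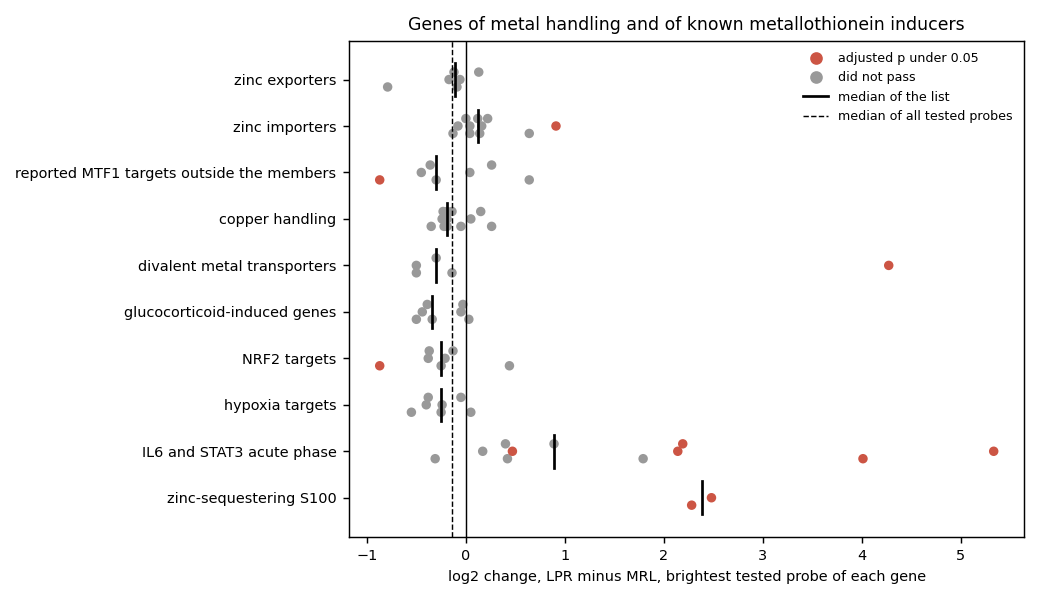
Log2 change (LPR minus MRL) of the brightest tested probe of each gene in 10 lists of metal handling and of metallothionein inducers; red points passed an adjusted p of 0.05, grey ones did not, the black bar is the median of a list and the dashed line the median of all tested probes. Copper, glucocorticoid and hypoxia lists hold no red point, whereas 5 of the 11 genes of the IL6 and STAT3 list and both S100 genes are red and above 0.

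Genes whose profile over the 6 arrays was most like that of Mt2 were sought among 23200 genes, by the root mean square distance of the signals after each probe's mean was subtracted. The brighter Mt1 probe came second, at 0.137 log2 units, whereas the dimmer Mt1 probe was at 0.443. Slc39a14 was at 0.483 and ranked 2379, Slc30a1 at 0.533 and ranked 4812, and Mt3 at 0.544 and ranked 5491. The other close genes were the unnamed transcripts Gm12589 (0.189), 1110019B22Rik (0.190) and Gm34265 (0.206). The measure is a description over 6 arrays, and any gene that was lower in LPR by a like amount is favoured by it.

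The closest of all was a probe of Pip5k1a, a lipid kinase, at 0.079 log2 units. A_55_P1999902 (chr3:94901128-94901187 on mm9, ENSMUST00000107229) read 4.31, 4.81 and 5.03 in MRL kidneys and 2.96, 3.91 and 3.30 in LPR kidneys, in the order of mice seen for Mt2. Its change was -1.33 (standard error 0.28), given without a test because the probe was selected on its likeness to Mt2. The other probes of Pip5k1a did not share this profile. A_51_P441974 changed by -0.15 and A_55_P1999908 by -0.27 (limma, adjusted p = 0.397 and 0.235), and A_55_P2720824 was below background in all 3 MRL mice and was not tested. The sequence of the first probe is shown beside that of the Mt4 probe, with capitals on the longest run the pair shares, 11 bases.
Pip5k1a, A_55_P1999902: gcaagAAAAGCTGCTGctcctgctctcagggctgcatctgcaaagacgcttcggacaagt
Mt4, A_51_P424272: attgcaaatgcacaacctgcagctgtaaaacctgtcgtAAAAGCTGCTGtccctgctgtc
Read in the frame without a stop codon that holds most cysteine codons, the Pip5k1a probe has 5 cysteines in 19 codons and the Mt4 probe 9. As many as 5 were found in 0.405% of all probes, and as many as 9 in 0.0159%. With the probes of Mt1 and Mt2 themselves, the Pip5k1a probe shared at most 6 bases in a row on the same strand. In the same reading the brighter Mt1 probe held 0 cysteine codons, and the Mt2 probe had no frame without a stop codon. This comparison therefore does not cover the cysteine-rich parts of those transcripts, and a run shared with them would not show. Whether its signal comes from Pip5k1a or from metallothionein transcripts was not tested.

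**Figure D5:**
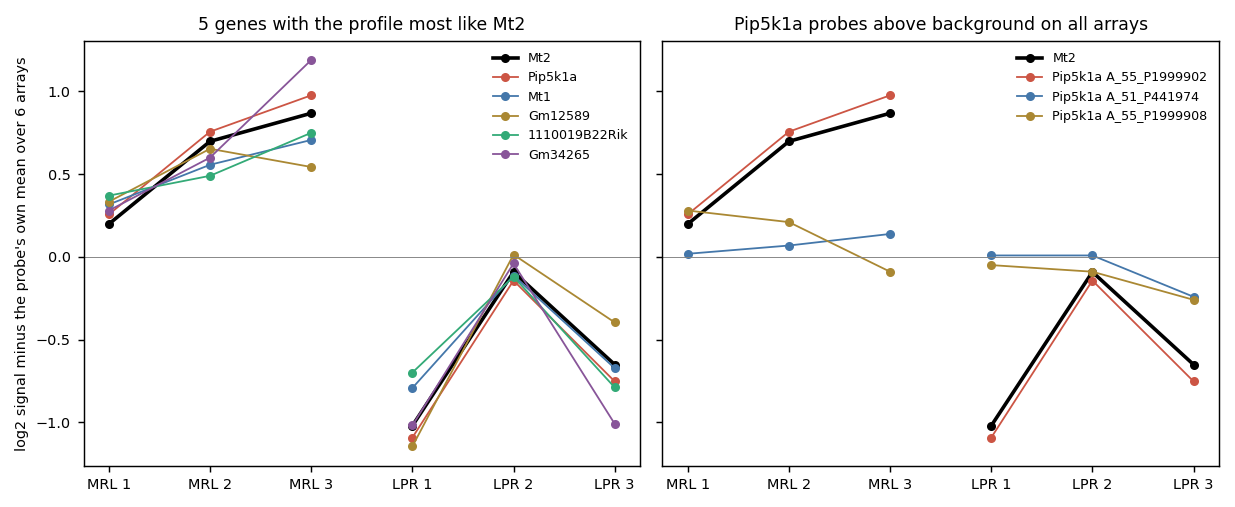
Log2 signal minus the probe's own mean over the 6 arrays, for Mt2 (black) and the 5 genes closest to it (left) and for the 3 probes of Pip5k1a above background on all arrays (right); each point is 1 mouse. The Pip5k1a probe A_55_P1999902 runs along Mt2 in all 6 mice, and the other pair of Pip5k1a probes do not.

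The 75th percentile of the arrays was 706 to 942, 69.6 to 70.6% of spots were well above background in MRL and 70.7 to 73.5% in LPR arrays, and 0 spots were saturated. Fas gave no fall that passed, as its brighter probe A_55_P2091676 had a change of -0.47 (limma, adjusted p = 0.234). The dimmer Fas probe A_52_P73385, above background in 0 of 3 MRL and 3 of 3 LPR mice, was at least 1.47-fold higher in LPR kidneys. It met the filter only through the LPR arrays, so this is a description with no test. Tubular and thick limb markers such as Slc34a1 and Umod were well above background on all arrays.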

How the data were processed

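Cy3-labelled complementary RNA of 3 MRL and 3 LPR kidneys was hybridized to 6 single-colour Agilent SurePrint G3 mouse arrays on 1 slide. The labels name RNeasy columns for the RNA and the methods Trizol. The authors deposited for each spot an intensity, background-subtracted by Feature Extraction 12.0.3.1, with no scaling between arrays, and with flags for spots above background, saturated or outlying. Their second table holds the same intensity over each array's 75th percentile, and was used as an alternative. Probes are placed on mm9, of which no annotation was used here.

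Outlier spots were left out, intensities were taken to log2 minus the 75th percentile of each array, and spots of 1 probe were averaged. Probes well above background on at least 3 of 6 arrays were compared across all genes in R 4.3.3 by limma 3.58.1. Its p-values were adjusted by Benjamini-Hochberg over 39924 probes, with 0.05 as the threshold. The brightest tested probe stands for a gene. Where a probe was above background on no MRL array, a rise is a lower bound, against MRL signals raised to the lowest signal above background of the array. Such a probe met the filter only through LPR arrays, so its p-value is not given, though it stays in the counts. The limma p-values set the difference between the groups against the spread between these mice, which limma moderates over all tested probes. The steps were tested on simulated data. An exact test of 3 against 3 cannot go below 0.1 and was not run.

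Members, lists and tests were chosen with earlier results of these data known. Genes were named as follows: all members with every probe, the tested zinc transporters by value or range, the called genes and up to 4 examples of each other list, Fas, and the 5 genes most like Mt2. The genes next to the cluster and the further probes of Pip5k1a were added after their values were seen. Promoters are from RefSeq (GRCm38.p6). The methods' t-test, other scalings, filters and slide positions, and leaving out each mouse were the alternatives. The plots come from python 3.11.15 and matplotlib 3.10.9.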

Additional observations from a re-analysis of the deposited data

How the results depend on the processing

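Each value was computed again under up to 24 other settings. Mt2 stayed lower in LPR kidneys under all of them, from -1.61 with the slide row in the fit to -0.82. LPR 1 is the only LPR array in the slide row of the MRL arrays, so values with the slide row set that 1 mouse, assumed to vary like the others, against 3 MRL mice and are no check over mice, and values with the slide column rest on 2 pairs of mice. The dimmer Mt1 probe kept its call in 23 of 23. Mt1 by its brighter probe kept the direction under all 24 and lost the call in 8: with the slide column (-0.83) or row (-1.32), under the methods' t-test with adjustment on log2 (-1.05, adjusted p = 0.0885) and linear values (-1.03, adjusted p = 0.0796), and without each of 4 mice (-1.26 to -0.92 over all 6 mice). Slc39a14 lost its call in 11, at -0.45 with the median of each array, -0.46 with no filter on dim probes, -0.41 with the slide column, -0.59 with the slide row, -0.46 with the replicate block and -0.52 to -0.39 without each mouse. Mtf1 had no call under any, and its sign turned in the mean of its probes (-0.02) and at 0.00 without LPR 2, for the gene and for its probe A_66_P122382, against 0.13 at the highest without a mouse. S100a8 and S100a9 kept their rise in 19 of 23 each, Slc39a4 its rise in 21 and Gclc its fall in 11. The cause of these shifts was not tested.

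Member probes called lower, Mt2 left out, were 1 instead of 3 with the slide column, with the slide row and without MRL 2, MRL 3, LPR 1 or LPR 3 (1 at the lowest and 3 at the highest without a mouse), and 5 under the methods' t-test on linear values before adjustment. Zinc exporters called lower were 1 instead of 0 under normexp, a filter on all 6 arrays, an intensity trend and without LPR 2, and 2 under both methods' t-tests before adjustment. Zinc importers called higher were 2 instead of 1 under normexp, the intensity trend, the unadjusted t-test on log2 values and without LPR 2, and 0 with the slide column and under the adjusted t-test on linear values.

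All probes called lower, 2462 as reported, were 4448 under normexp, 1093 with no filter, 973 with the slide column, 463 with the slide row, 1117 with the replicate block, 760 to 2269 without each mouse, 7175 and 7384 under the unadjusted t-tests on log2 and linear values and 1385 and 1353 after adjustment. Those called higher, 2606 as reported, were 1458 with the slide row, and 1736 and 1444 under the adjusted t-tests. The median change of all tested probes ran from -0.17 to -0.11 over these settings.

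Same-numbered mice did not deviate together (r of deviations 0.12, 0.02 and 0.01 for numbers 1 to 3, and MRL 1 alone correlated best with its own number), so the numbers were not taken as pairs, and the fit with the numbers as a block is not a paired result. Of the member calls the replicate block ended that of Slc39a14 alone. All arrays shared 1 slide and 1 scan. With 3 mice a group, the number of arrays limits the precision.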
